A study of Saccharomyces cerevisiae with 20 samples.

Results

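The open reading frames (ORFs) nearest the centromeres of *Saccharomyces cerevisiae* are described here. A systematic yeast name gives the chromosome, the arm, a number that starts at the centromere and the strand. ORFs of numbers 001 to 007 on every arm, suffixed names included, were taken as centromere-proximal. They were 245 of 6678 ORFs with usable values (3.67%), on 32 arms of 16 chromosomes with 4 to 10 on an arm, and no member was lost to a filter. The other 6433 ORFs served for comparison. The 31 unsuffixed ORFs of number 001 are called the first ORFs, since the centromere lies between the first ORF of the left arm and that of the right arm. The right arm of chromosome I gave none. In the order of the RefSeq table no other gene lay between the lowest-numbered ORFs of 15 of the 16 chromosomes. The exception was chromosome III, where YCL001W-A and YCL001W-B come next to *RER1*, the first ORF of the left arm.

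A budding yeast centromere is a short element of defined sequence that carries the kinetochore, the protein assembly that holds spindle microtubules. At this element the centromeric histone variant Cse4 takes the place of H3 in the nucleosome, and nucleosomes are positioned on both sides of it. Gcn5 is the catalytic subunit of the SAGA and related histone acetyltransferase complexes. H3K18ac, the acetylation of lysine 18 of histone H3, is among its products and is found at the promoters of active genes. H4K16ac, the acetylation of lysine 16 of histone H4, is placed mainly by other enzymes and marks euchromatin outside silenced domains.

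The study followed chromatin while cells adapted to osmotic stress and recovered from it. The strain, BQS1350 in the BY4742 background, carries a myc tag on Gcn5, and all 20 files come from it. Cells grew in YPD at 30 °C and were sampled in log phase before stress (sample A), 1 h after a change to 1 M KCl (sample B), after adaptation in KCl (sample C), 1 h after KCl was taken away again (sample D) and once growth had recovered (sample E). In ChIP-chip, DNA that comes down with an antibody is hybridised to a tiling array and set against input DNA. Gcn5 was precipitated through its tag, and the other antibodies were directed against H3K18ac, H4K16ac and H3.

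Each of the 4 antibodies has 1 file for a sample, so no replicate error exists, no test between samples was possible and no p-value is given. A difference that involves 1 sample cannot be told apart from a property of its arrays. The values are logarithms in arbitrary units, of a base the sources do not name, and levels are therefore compared as differences and not as folds. Each ORF has 9 bins of 5′ intergenic region (IGR), 20 bins of ORF and 9 bins of 3′ IGR. An IGR bin set ends at the middle of the intergenic region. Levels of a region are means over its bins after the 5 samples of an antibody were brought to a common median. A difference of 0.3 or more was used as the limit for counts, and the share of all ORFs past the same limit is given as the background. Centromere-proximal ORFs and other ORFs had median lengths of 1206 and 1200 bp.

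H3 was the antibody in which centromere-proximal ORFs stood lower than the rest of the genome. At the ORF they had a median H3 of 0.18, 0.11, 0.11, 0.10 and 0.13 in samples A to E, against 0.24, 0.24, 0.24, 0.24 and 0.25 in other ORFs. The difference was smallest in sample A, at −0.06, and lay between −0.15 and −0.12 in samples B to E. The mean of the 5 samples was lower than that of the other ORFs of the same chromosome on 16 of 16 chromosomes, from −0.32 on chromosome X to −0.00 on chromosome II. In sample A, 36.3% of the members lay above the median of all ORFs, and in samples B to E between 23.3% and 27.3% did.

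As the mean of the 5 samples the 3′ IGR differed by −0.17, against −0.12 at the ORF. In the 3′ IGR the median H3 level of centromere-proximal ORFs was −0.22, −0.43, −0.34, −0.38 and −0.31 in samples A to E, against −0.18, −0.17, −0.18, −0.18 and −0.13 in other ORFs. In the 5′ IGR it was −0.28, −0.38, −0.35, −0.39 and −0.33, against −0.26, −0.21, −0.22, −0.24 and −0.18. In both flanks sample A differed little from the rest of the genome, by −0.04 and −0.02, and samples B to E differed by −0.26 to −0.13. The 3′ IGR was lower on 16 of 16 chromosomes and the 5′ IGR on 12 of 16. As the mean of the 5 samples the 5′ IGR differed by −0.13, and by −0.08 when number 001 was left out.

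Both acetylation marks stood higher. The median H3K18ac level at the ORF was 0.33, 0.38, 0.36, 0.38 and 0.37 in centromere-proximal ORFs in samples A to E, against 0.21, 0.25, 0.22, 0.23 and 0.24 in other ORFs. In the 5′ IGR, which holds the promoter, it was 0.64, 0.62, 0.63, 0.68 and 0.65, against 0.48, 0.45, 0.47, 0.49 and 0.46. The excess of H3K18ac was thus present in every sample, at 0.12 to 0.14 on the ORF and 0.16 to 0.20 in the 5′ IGR, but it varied between chromosomes with an SD of 0.19 to 0.22 in these regions. It was seen on 12 of 16 chromosomes at the ORF and on 14 of 16 in the 5′ IGR. On the ORF it ranged from −0.17 on chromosomes X and XII to 0.65 on chromosome III. In the 3′ IGR the excess of H3K18ac was 0.11 as the mean of the 5 samples, with an SD over chromosomes of 0.23, and was seen on 11 of 16.

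For H4K16ac the median level at the ORF was 0.22, 0.25, 0.24, 0.22 and 0.22 in centromere-proximal ORFs in samples A to E, against 0.12, 0.13, 0.13, 0.13 and 0.13 in other ORFs. In the 5′ IGR it was 0.61, 0.63, 0.61, 0.60 and 0.61, against 0.47, 0.44, 0.46, 0.45 and 0.45. The excess of 0.09 to 0.12 on the ORF and 0.14 to 0.19 in the 5′ IGR changed little over the regime. It was seen on 13 and 11 of 16 chromosomes, and again chromosome III was highest at the ORF, with 0.41, and chromosome X lowest, with −0.16. For the mean of the 5 samples the SD over chromosomes was 0.14 at the ORF and 0.18 in the 5′ IGR. In the 3′ IGR the excess of H4K16ac was 0.10, with an SD of 0.18, and was seen on 10 of 16.

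Gcn5 showed no such offset. Its median at the ORF was −0.07, −0.06, −0.09, −0.09 and −0.07 in centromere-proximal ORFs in samples A to E, against −0.07, −0.06, −0.08, −0.08 and −0.08 in other ORFs. Over the 3 regions and 5 samples the difference between both groups lay between −0.03 and 0.02. With the H3 value of each bin subtracted from the other antibodies, the mean of the 5 samples was higher in centromere-proximal ORFs by 0.12 for Gcn5, 0.25 for H3K18ac and 0.24 for H4K16ac at the ORF. This correction carries the lower H3 level of the members into each of the other antibodies.

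**Figure D1:**
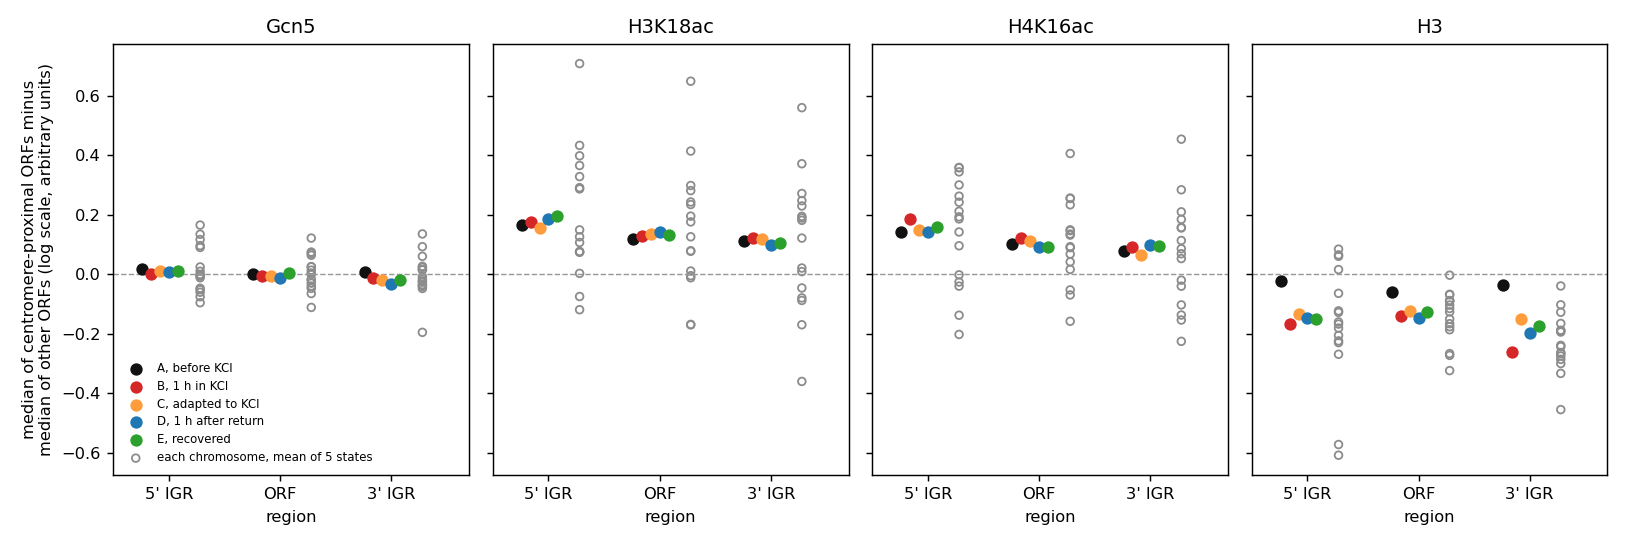
Median level of the 245 centromere-proximal ORFs minus that of the 6433 other ORFs (y axis, log scale, arbitrary units) for the 5′ IGR, ORF and 3′ IGR (x axis) of each antibody; filled points are samples A to E and open circles are the 16 chromosomes as the mean of the 5 samples. H3 of sample A lies near 0 in both flanks while samples B to E lie between −0.26 and −0.13, both acetylation marks lie above 0 in every sample, and Gcn5 lies within −0.03 to 0.02.

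In the first ORFs the later samples differed most from sample A in H3 on the side that faces the centromere. For an ORF transcribed away from the centromere this is its 5′ IGR, and for an ORF transcribed towards it the 3′ IGR. Of the 31 first ORFs, 12 turned their 5′ side and 19 their 3′ side to the centromere. Left and right first ORFs of a chromosome flank the same centromere, so the 31 facing flanks are not independent observations. The median H3 level of the facing flank was 0.10, −0.86, −0.61, −0.88 and −0.73 in samples A to E. On the flank of the same ORFs that faces away it was −0.25, −0.51, −0.39, −0.45 and −0.34. Sample A was therefore high on the facing flank and samples B to E were low. The facing flank was the higher of the pair in 25 of 31 first ORFs in sample A, and the lower in 25, 22, 21 and 24 of 31 in samples B to E. Among other ORFs it was the higher in 3266 of 6433 in sample A, and the lower in 3204, 3197, 3197 and 3224 of 6433 in samples B to E.

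The pattern held for both orientations. In the 12 first ORFs with the 5′ side facing, the median was 0.01, −0.71, −0.58, −0.74 and −0.63 in samples A to E. In the 19 with the 3′ side facing it was 0.25, −0.95, −0.85, −0.89 and −0.74. Facing 5′ flanks of other ORFs had medians between −0.25 and −0.17, and their facing 3′ flanks between −0.19 and −0.14, so the first ORFs lay above this level in sample A and below it in the 4 later samples.

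In sample B the facing flank had lower H3 than in sample A in 30 of 31 first ORFs, with a median difference of −1.01 and a range from −2.08 to 0.11. The difference was −0.3 or lower in 27 of 31 (87.1%), against a background of 5.86% over all 13356 flanks of the genome. It was −1 or lower in 16 of 31, against a background of 0.195%, which is 26 flanks. The first ORFs thus supplied 16 of the 26 flanks with so large a difference, and 8 of the 10 and 15 of the 20 largest. Among the 20 largest, the flanks of non-members included those of *RPL21A*, *PIL1* and *HSP12*, which encode a ribosomal protein, an eisosome component and a heat shock protein (names chosen after their values were seen). YCL001W-B, beside the centromere of chromosome III, was a further member, with −1.44.

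The later samples stayed lower than sample A. In sample C the median difference from sample A was −0.71, with 27 of 31 first ORFs at −0.3 or lower (background 4.94%) and 12 at −1 or lower (0.142%). In sample E it was −0.78, with 31 of 31 negative, 27 at −0.3 or lower (4.6%) and 13 at −1 or lower (0.262%). Between samples C and D the median difference was −0.12, and 2 first ORFs were higher and 7 lower by 0.3 or more (backgrounds 3.62% and 4.81%). Sample A was the highest of the 5 samples on the facing flank of 30 of 31 first ORFs. No share over all flanks was counted for such rankings or for signs of differences, in any antibody. Samples A and E were both taken from cells growing without KCl, and with 1 array file each the state and the array cannot be told apart.

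**Figure D2:**
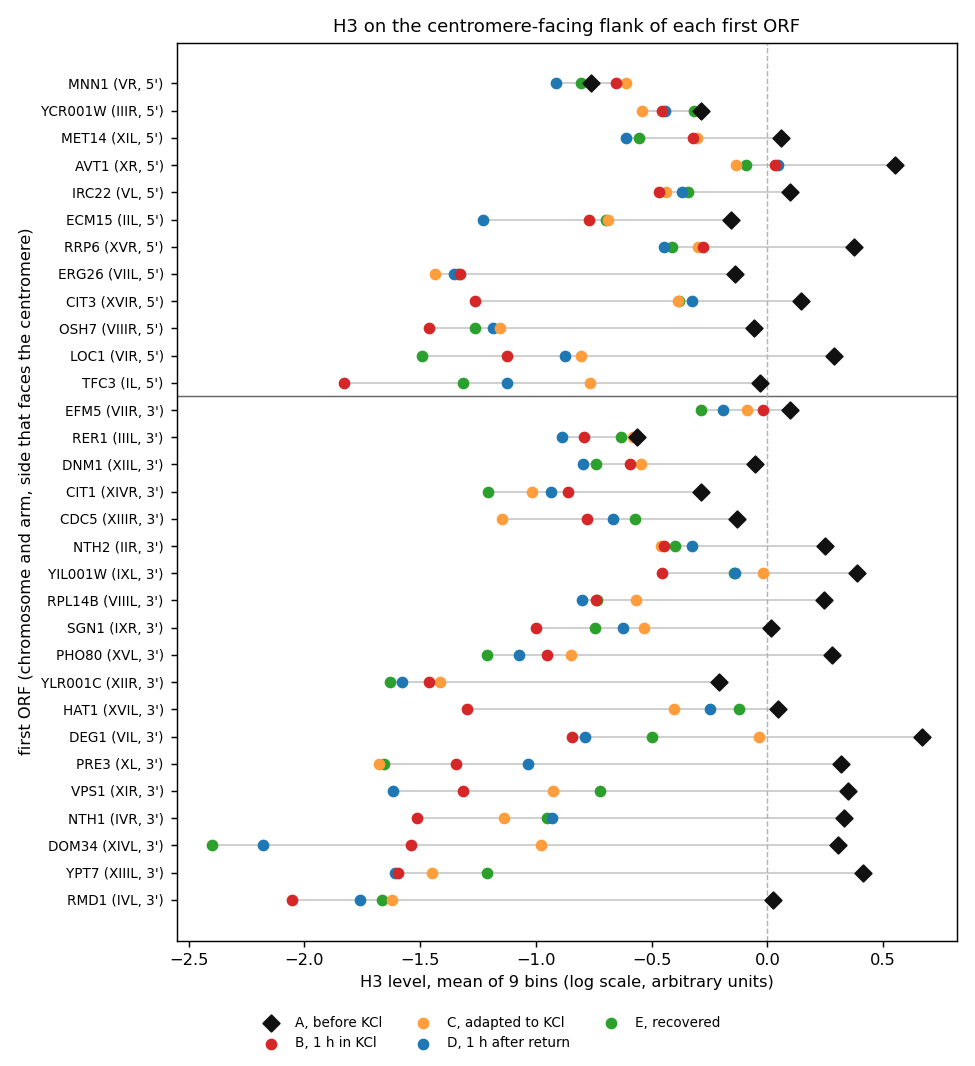
H3 level on the centromere-facing flank (x axis, mean of 9 bins, log scale, arbitrary units) of each of the 31 first ORFs (y axis, with chromosome, arm and facing side); diamonds are sample A, coloured points are samples B to E, and the horizontal line separates 5′ from 3′ sides. Sample A is the rightmost point in 30 of 31 rows, and the exception is MNN1.

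Single first ORFs differed widely in depth. The lowest facing flanks by the mean of the 5 samples were those of *RMD1* and of *DOM34*, which encodes a factor that rescues stalled ribosomes. *RMD1*, left of the centromere of chromosome IV, had H3 levels of 0.02, −2.05, −1.62, −1.76 and −1.67 in samples A to E. *DOM34*, on the left arm of chromosome XIV, had 0.30, −1.54, −0.98, −2.18 and −2.40. Both were near or above 0 in sample A. In samples B, D and E both lay below the lower quartile of the first ORFs. In sample C *RMD1* did so too, while *DOM34*, at −0.98, lay above that quartile of −1.08. The highest were *AVT1*, which encodes a vacuolar amino acid transporter, with 0.55, 0.03, −0.13, 0.05 and −0.09, and the uncharacterised YIL001W, with 0.39, −0.45, −0.02, −0.14 and −0.14. Even in these sample A was the highest of the 5.

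*NTH1* and *TFC3* belonged to the gene lists. *NTH1*, which encodes neutral trehalase and lies right of the centromere of chromosome IV, had 0.33, −1.51, −1.14, −0.93 and −0.95 on its facing 3′ flank in samples A to E. *TFC3*, which encodes the largest subunit of the RNA polymerase III factor TFIIIC, had −0.03, −1.83, −0.77, −1.13 and −1.32 on its facing 5′ flank. *RPL14B*, a gene for a protein of the large ribosomal subunit, had 0.25, −0.74, −0.57, −0.80 and −0.73. In these 3 genes every later sample lay well below sample A.

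*NTH2* was also highest in sample A but differed less from it later, and *HAT1* showed another course. *NTH2*, the paralogue of *NTH1* beside the centromere of chromosome II, had 0.25, −0.45, −0.46, −0.33 and −0.40. *HAT1*, which encodes a histone acetyltransferase for free H4, had 0.05, −1.30, −0.40, −0.25 and −0.12, and its partner across the centromere of chromosome XVI, the citrate synthase gene *CIT3*, had 0.14, −1.26, −0.39, −0.33 and −0.38. On this chromosome sample B was the lowest by far, and samples C to E lay between it and sample A.

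The remaining genes named in this paragraph were chosen after their values were seen. The Rab GTPase gene *YPT7* had 0.41, −1.60, −1.45, −1.61 and −1.21, the proteasome subunit gene *PRE3* had 0.32, −1.34, −1.68, −1.03 and −1.66, and the dynamin-like GTPase gene *VPS1* had 0.35, −1.32, −0.93, −1.62 and −0.72 in samples A to E. These were among the largest differences from sample A. The smallest were in the mannosyltransferase gene *MNN1*, with −0.76, −0.65, −0.61, −0.91 and −0.81, in the methyltransferase gene *EFM5*, with 0.10, −0.02, −0.09, −0.19 and −0.29, and on chromosome III. There YCR001W had −0.29, −0.46, −0.54, −0.44 and −0.31, and *RER1*, which is separated from the centromere by the ORFs named above, had −0.56, −0.79, −0.58, −0.89 and −0.63.

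The bins showed where along the first ORFs the difference lay. In the bin farthest out on the centromere side the median H3 level was 0.34 in sample A of the first ORFs and −0.78, −0.72, −0.46 and −0.60 in samples B to E. In the bin next to the ORF it was 0.17 in sample A and −0.72, −0.47, −0.53 and −0.45 in samples B to E. Over the 4 bins farthest from the ORF the median of sample B minus sample A was −1.19, and over the 4 nearest it was −0.80. The ORF bins of the first ORFs were also higher in sample A than in the later samples. Other ORFs had nearly the same profile in all 5 samples. Bins lying exactly midway between their neighbours, which may be interpolated, made up 0.40% of the facing flanks and 1.78% of all bins.

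**Figure D3:**
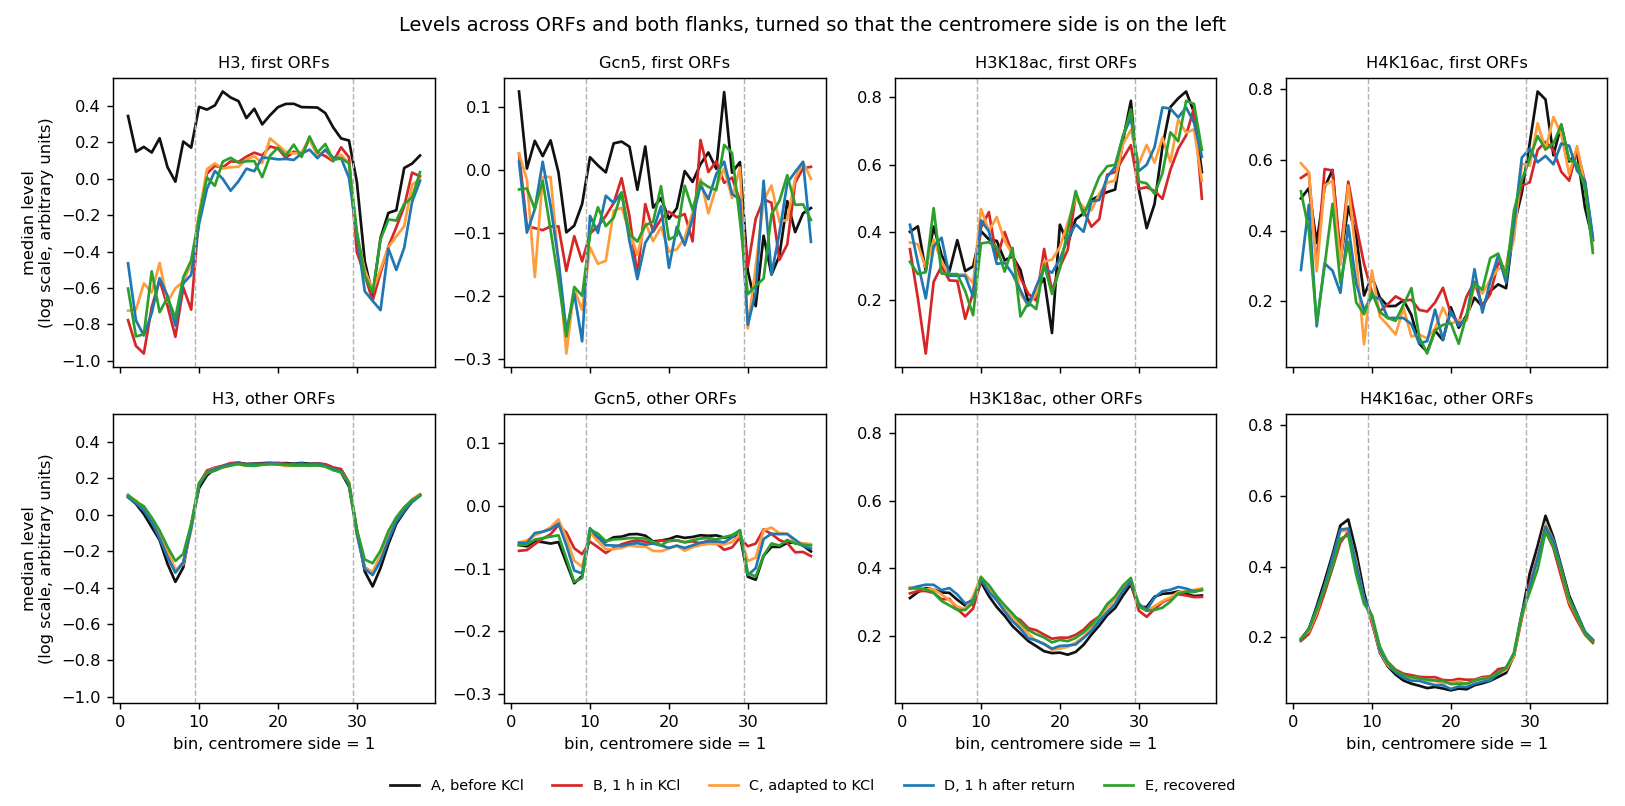
Median level (y axis, log scale, arbitrary units) in each of the 38 bins (x axis, bin 1 on the centromere side, dashed lines at the ends of the ORF) for the 31 first ORFs in the upper row and the other ORFs in the lower row, with 1 line for each of samples A to E. In the upper left panel sample A is at 0.34 in bin 1 and samples B to E are at −0.78 to −0.46, while the 5 lines of other ORFs nearly coincide.

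Gcn5 on the same flanks also had its highest median in sample A. The median on the facing flank of the first ORFs was −0.00, −0.14, −0.14, −0.22 and −0.12 in samples A to E, and sample A was the highest of the 5 in 19 of 31. In sample B 1 first ORF was higher and 3 were lower by 0.3 or more (backgrounds 11.1% and 2.99%). In sample C 1 was higher and 5 were lower (16.1%), against backgrounds of 2.77% and 0.981%. In sample E 1 was higher and 7 were lower (22.6%), against backgrounds of 0.831% and 1.41%. Falls in samples C and E were thus more frequent than over all flanks. The median difference from sample A was −0.07 in sample B, −0.17 in sample C and −0.12 in sample E. For H3 these medians were −1.01, −0.71 and −0.78. The arbitrary units of each antibody are defined independently, so such sizes are not directly comparable between antibodies.

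For the acetylation marks, sample A was the highest of the 5 on fewer of these flanks than for H3. It was so on 10 of 31 for H3K18ac and on 12 of 31 for H4K16ac. H3K18ac on the 12 facing 5′ flanks had medians of 0.56, 0.46, 0.62, 0.59 and 0.54 in samples A to E, and H4K16ac had 0.74, 0.79, 0.72, 0.59 and 0.64. In sample B the median difference from sample A over all 31 facing flanks was −0.12 for H3K18ac, with 2 first ORFs higher and 6 lower by 0.3 or more (backgrounds 7.9% and 9.91%). For H4K16ac it was 0.00, with 3 higher and 1 lower (1.98% and 3.68%). In sample E the H3K18ac difference from sample A had a median of −0.14, with 25 of 31 negative and 7 lower by 0.3 or more (22.6%, background 5.8%). In sample D 5 first ORFs had lower H4K16ac by that much than in sample C (16.1%, background 3.83%).

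On the 19 facing 3′ flanks both marks were low in every sample, sample A included. H3K18ac had medians of 0.05, −0.05, 0.06, 0.13 and −0.07 there, against 0.76, 0.79, 0.69, 0.86 and 0.73 on the 5′ flanks of the same ORFs. The facing flank was the lower of the pair in 17 or 18 of 19 in each sample. Among other ORFs with the 3′ side facing it was the lower in 2088 to 2118 of 3220, so most ORFs of this orientation share the direction. Other ORFs whose 3′ side faces the centromere had 0.12 to 0.16 on the 3′ flank, against 0.44 to 0.49 on the 5′ flank. H4K16ac had 0.22, 0.16, 0.27, 0.11 and 0.14 on the facing 3′ flanks of the first ORFs, against 0.37 to 0.42 on those of other ORFs.

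The H3 difference between samples B and A faded within a few ORFs of the centromere. The H3 level at the ORF, as the mean of the 5 samples, was 0.08 for number 001 and 0.12, 0.10, 0.16, 0.12, 0.21 and 0.07 for numbers 002 to 007, against 0.22 to 0.25 in the classes of higher number. For ORFs of number 001, suffixed names included (n = 36), the median of sample B minus sample A on the facing flank was −0.91. For numbers 002 to 007 it was −0.12, −0.03, −0.06, −0.05, −0.04 and 0.02, and for numbers 008 to 020 (465 ORFs) it was 0.03. On the ORF itself it was −0.20 for number 001 and −0.08, −0.05, −0.07, −0.00, 0.01 and −0.00 for numbers 002 to 007, against 0.02 for numbers 008 to 020. On the flank facing away it was −0.15 for number 001 and between −0.05 and −0.02 for numbers 002 to 007. The step from number 001 to number 002 was the largest in each of the 3 regions.

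The acetylation marks followed another course along the arm. The H3K18ac level at the ORF, as the mean of the 5 samples, was 0.49, 0.39, 0.40, 0.42, 0.35, 0.35 and 0.16 for numbers 001 to 007 and 0.22 for numbers 008 to 020. It was therefore above the level farther out up to number 006. H4K16ac was 0.21, 0.28, 0.36, 0.23, 0.30, 0.10 and 0.12 for numbers 001 to 007 and 0.10 for numbers 008 to 020, and was highest at number 003. ORFs at the other end of the arms gave a contrast. The 270 chromosome-end ORFs (the last 7 numbers of each arm) had H3K18ac medians of −0.15 to −0.06 and H3 medians of 0.34 to 0.36 at the ORF.

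Counted over all 245 centromere-proximal ORFs, H3 differences from sample A were more often downward than in the genome. At the ORF, sample B was lower by 0.3 or more in 19 members (7.76%, background 1.78%) and higher in 3 (background 1.92%). The median difference was −0.05 in members and 0.03 in other ORFs, and it was lower in members on 16 of 16 chromosomes. In the 3′ IGR 54 members were lower (22.0%, background 6.74%) and 5 higher (6.56%), and in the 5′ IGR 38 were lower (15.5%, background 4.97%) and 8 higher (7.5%).

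Sample C gave 17 lower and 4 higher members at the ORF (backgrounds 1.23% and 1.57%), 41 and 5 in the 3′ IGR (6.03% and 6.05%) and 27 and 7 in the 5′ IGR (3.85% and 6.72%). Sample E gave 16 and 2 at the ORF (1.99% and 2.07%), 43 and 12 in the 3′ IGR (5.12% and 9.79%) and 31 and 8 in the 5′ IGR (4.09% and 9.69%). All 3 samples share sample A as the comparison. Without sample A, sample D against sample C gave 2 lower and 1 higher at the ORF (0.704% and 0.449%), 17 and 7 in the 3′ IGR (5.15% and 4.57%) and 22 and 4 in the 5′ IGR (4.48% and 2.68%).

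For the other antibodies, the counts given first here, from samples B against A and D against C, lay near the background or below it. In sample B against sample A, Gcn5 was higher by 0.3 or more in the 3′ IGR of 21 members (8.57%), against a background of 14.4%, and lower in 6 (2.07%). At the ORF it was higher in 3 and lower in 5 members (1.59% and 1.57%). H3K18ac at the ORF was higher in 7 and lower in 2 members (4.52% and 2.83%), and H4K16ac was higher in 1 and lower in 1 (1.36% and 1.26%). These shares were near those over all ORFs or below them. In sample D against sample C, H4K16ac at the ORF was higher in 0 and lower in 4 members (0.539% and 2.25%). H3K18ac was higher in 9 and lower in 6 (3.91% and 3.59%). Falls exceeded the share of other ORFs in some further counts, in part from the same samples. In sample B against sample A, Gcn5 in the 5′ IGR was lower in 13 members (5.31%) and higher in 15 (other ORFs 3.86% and 7.77%). In sample C against sample A, Gcn5 was lower in 7 (2.86%) and higher in 4 members in the 3′ IGR (other ORFs 0.979% and 3.06%). At the ORF it was lower in 3 (1.22%) and higher in 0 (other ORFs 0.373% and 0.529%). H4K16ac in the 5′ IGR was lower in 13 (5.31%) and higher in 1 in sample D against sample C (other ORFs 3.68% and 1.10%).

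Of the 4 stress-linked genes beside centromeres, *NTH1*, *NTH2*, *PTC1* and *SSA1*, 0 differed by 0.3 or more in H3 at the ORF between samples B and A (backgrounds 1.92% higher and 1.78% lower), and 2 had lower H3 by that much in the 3′ IGR (background 6.74%). These were the first ORFs *NTH1* and *NTH2*. The median H3 difference at the ORF was −0.07 over the 4 stress-linked genes and −0.09 over 7 chromatin-linked genes. Over the 4 genes of the translation list, which includes *TFC3*, it was −0.08. It was −0.05 over all members and 0.03 over other ORFs. At the ORF of *NTH1* H3 was 0.49, 0.31, 0.32, 0.37 and 0.34 in samples A to E, H4K16ac was −0.18, −0.43, −0.47, −0.25 and −0.23, and H3K18ac was 0.17, −0.07, −0.00, 0.16 and 0.19. Both marks were lower in the KCl samples B and C than in A, D and E. *NTH2* had H3K18ac of 0.04, 0.14, 0.01, 0.25 and 0.10 at the ORF, so the paralogues differed in direction in sample B.

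*PTC1*, which encodes a phosphatase that acts on the osmostress kinase Hog1, had H3 of 0.08, 0.08, 0.06, 0.08 and 0.08 at the ORF and was the steadiest of the list. *SSA1*, a cytosolic HSP70 gene, had Gcn5 levels of 0.71, 0.03, 0.41, 0.39 and 0.56 in its 5′ IGR and H3 of −1.87, −2.06, −1.85, −1.92 and −1.89 there. Sample B was thus the lowest for Gcn5, while H3 was very low throughout.

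Among 7 chromatin-linked genes, 1 had lower H3 at the ORF by 0.3 or more in sample B (background 1.78%), the first ORF *HAT1*, with 0.27, −0.36, −0.29, −0.28 and −0.17 in samples A to E. The histone genes *HTA2* and *HTB2*, which encode H2A and H2B and share a promoter, had Gcn5 of 0.66, 0.04, 0.41, 0.58 and 0.55 and of 0.52, −0.07, 0.48, 0.49 and 0.50 in their 5′ IGRs. Sample B was the lowest in both, and the pair shares 1 intergenic region. H3K18ac at their ORFs was high in all samples, at 0.71 to 0.86 and at 1.00 to 1.08. *LDB7*, which encodes a subunit of the RSC remodeller, had 1.30 to 1.38.

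The cohesin gene *MCD1* had negative H3K18ac, between −0.23 and −0.05 at the ORF. In *SWD1*, a COMPASS subunit gene, H3 was lower in samples B to E than in sample A at the ORF by less than 0.3, and in *NHP10*, an INO80 subunit gene, the same held.

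Of the 4 genes in the translation list, 1 had lower H3 at the ORF by 0.3 or more in sample B (background 1.78%). This was the first ORF *TFC3*, a gene of RNA polymerase III transcription and not of translation itself. Its H3 was 0.86, 0.17, 0.07, 0.05 and 0.17 in samples A to E, and its Gcn5 was 0.36, 0.21, 0.13, 0.08 and 0.17. Sample A was the highest for both antibodies. The ribosomal protein genes *RPL14A* and *RPL14B*, which lie near the centromeres of chromosomes XI and VIII, had closely matching ORF values. H3K18ac was 0.60, 0.81, 0.67, 0.47 and 0.72 in *RPL14A* and 0.60, 0.80, 0.71, 0.53 and 0.74 in *RPL14B*, highest in sample B and lowest in sample D in both. The copies are nearly identical in sequence, so a shared course and cross-hybridisation cannot be told apart. Their flanks differed, since H3 in the 3′ IGR was −0.77, −0.91, −0.74, −0.57 and −0.86 in *RPL14A*, which is not a first ORF.

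*EFB1*, which encodes a translation elongation factor, had H4K16ac of −1.14, −0.98, −0.64, −0.84 and −1.06 at the ORF. Its 3′ IGR was among the 2 lowest of all members in H3, with −1.85, −1.96, −1.95, −2.11 and −1.33. Of the 6 genes in paralogue pairs, 4 had lower H3 in the 3′ IGR by 0.3 or more in sample B (background 6.74%), and 3 of these were the first ORFs *NTH1*, *NTH2* and *RPL14B*. The paralogues *RCR1* and *RCR2* both had high H3K18ac at the ORF, with 1.25, 1.17, 0.93, 1.16 and 1.24 and with 1.16, 1.23, 1.08, 1.12 and 1.01.

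**Figure D4:**
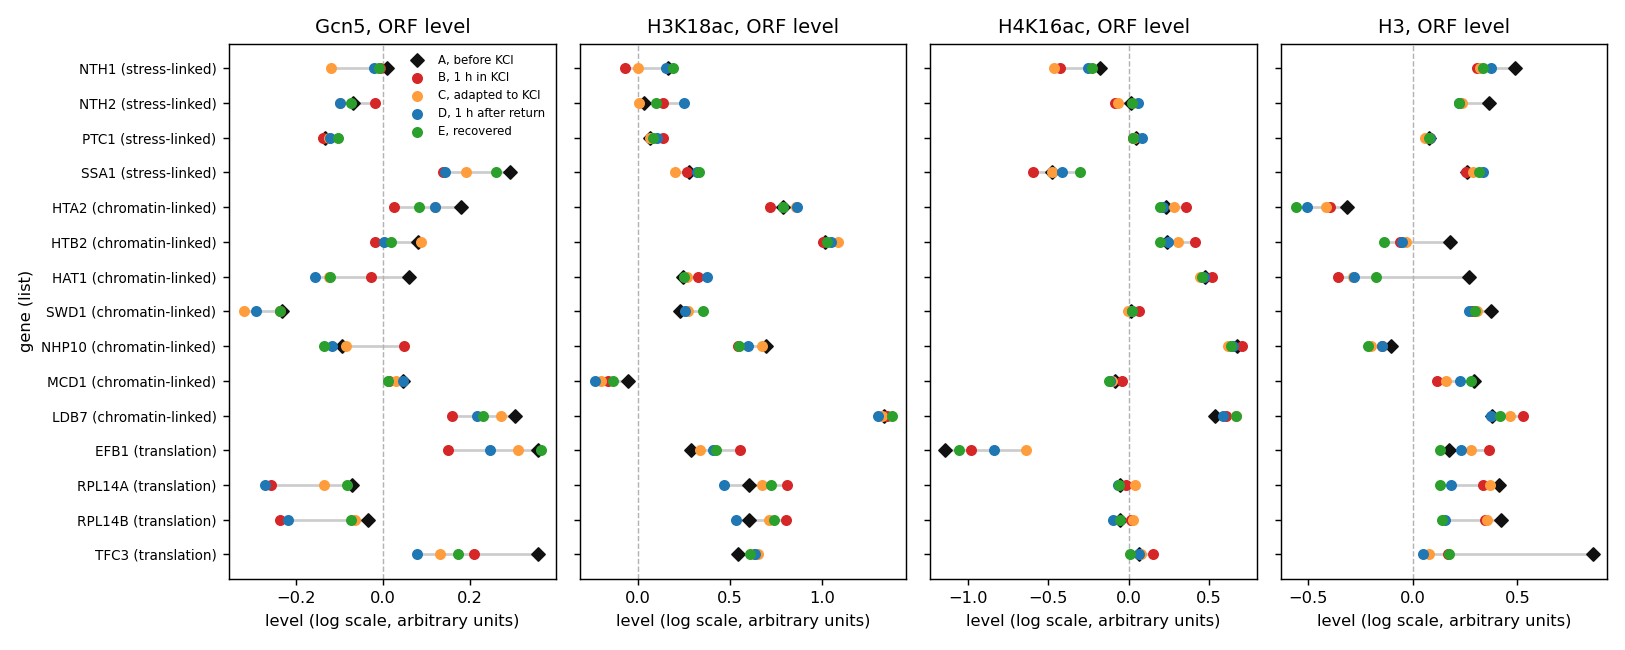
Level at the ORF (x axis, log scale, arbitrary units) of 15 genes in the stress-linked, chromatin-linked and translation lists (y axis) for each antibody. Diamonds are sample A, coloured points are samples B to E, and grey lines join the lowest and highest sample. TFC3 and HAT1 have H3 of 0.86 and 0.27 in sample A, to the right of all later samples, whereas PTC1 stays within 0.06 to 0.08.

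Beyond the first ORFs, members at the extremes were chosen by their own values and are given as a description. At the ORF the highest Gcn5 was at *PMI40*, which encodes phosphomannose isomerase, with 1.18, 1.61, 1.32, 1.21 and 1.36 in samples A to E. *PMI40* also had the highest H4K16ac, with 2.31, 2.43, 2.60, 2.41 and 2.55. *LDB16*, which encodes a protein of lipid droplet assembly, was highest in the 5′ IGR for H3K18ac, with 2.13, 1.80, 1.99, 2.01 and 2.06, for H4K16ac, with 1.71, 1.84, 1.79, 1.72 and 1.40, and for H3, with 0.71, 0.87, 0.83, 0.89 and 0.84. These loci were far from the median of members in all 5 samples.

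At the other extreme was *BRP1*, a dubious ORF in the promoter region of the proton pump gene *PMA1*. Its H3 was −3.09, −2.79, −2.96, −3.04 and −2.998 in the 5′ IGR and its H4K16ac −2.49, −2.52, −2.57, −2.64 and −2.51 at the ORF. YGL007C-A, of the same number on the same arm, had the lowest H3 at the ORF, with −3.003, −2.73, −4.04, −3.23 and −3.72. The highest H3 at the ORF was at *SLA1*, an endocytosis gene, with 0.49, 0.59, 0.62, 0.53 and 0.56, and at the first ORF *MET14*, a gene of sulfate assimilation, with 0.63, 0.52, 0.52, 0.42 and 0.45.

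Several members stood apart in sample B. The largest H3 difference at the ORF was in *COX16*, which encodes a factor of cytochrome oxidase assembly, with −0.60, −1.63, −0.67, −0.69 and −0.61 in samples A to E. The low value was that of sample B alone. In *PRE3* H3 was 0.21, −0.50, −0.60, −0.54 and −0.53 at the ORF, so all later samples were low. H3 rose most in sample B in YJL007C, with −1.50, −0.86, −1.04, −1.71 and −1.34. Next was *RPB11*, a gene for an RNA polymerase II subunit, with −0.03, 0.27, 0.24, 0.14 and 0.03.

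H3K18ac peaked in sample B on the ORF of *ATO2*, an ammonium export gene, with 0.49, 0.98, 0.53, 0.62 and 0.54, and in *ICL2*, a mitochondrial methylisocitrate lyase gene, with 0.16, 0.63, 0.15, 0.28 and 0.20. In *CIT2*, the peroxisomal citrate synthase gene, it was 0.25, 0.44, 0.13, 0.63 and 0.37, with peaks in both samples taken 1 h after a medium change. H4K16ac of the eisosome gene *LSP1* was −0.11, −0.47, −0.15, −0.14 and −0.03, lowest in sample B, and that of *UTP20*, a gene of the small subunit processome, was −0.69, −0.36, −0.30, −0.62 and −0.52, highest in both KCl samples. Gcn5 at the ORF fell most from sample A to B in *BRP1*, with 0.88, 0.20, 0.65, 0.72 and 0.99. Next was the recombination repair gene *SHU1*, with 0.27, −0.24, 0.12, 0.11 and 0.21 and sample B the only negative value. YCR001W had the largest Gcn5 rise, with −0.17, 0.33, −0.02, −0.07 and −0.21. Its H3K18ac fell most, with 0.33, 0.00, −0.34, 0.13 and 0.08.

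Levels in these data vary with ORF length, and members were therefore also set against other ORFs of the same length class. As the mean of the 5 samples, H3 at the ORF was 0.00 in 98 members and 0.18 in 2307 other ORFs under 1 kb. It was 0.16 and 0.27 at 1 to 2 kb, 0.18 and 0.29 at 2 to 3 kb, and 0.25 and 0.28 in 12 members and 515 other ORFs over 3 kb. H3 at the ORF was thus lower in members in each class of known length, but in the class with no length it was 0.12 in 10 members and 0.11 in 665 other ORFs. Over 3 kb both flanks had higher H3 in members, by 0.09 in the 5′ IGR and 0.08 in the 3′ IGR. H3K18ac was higher in members in each class, with 0.61 and 0.53 under 1 kb, 0.32 and 0.21 at 1 to 2 kb, −0.04 and −0.09 at 2 to 3 kb and −0.17 and −0.29 over 3 kb. H4K16ac was 0.39 and 0.30 under 1 kb but −0.22 and −0.16 over 3 kb, where members were the lower ones.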

How the data were processed

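Per the methods and the labels, the authors hybridised ChIP and input DNA to Affymetrix tiling arrays, obtained the signal with Tiling Analysis Software, gave the 5 samples the same median and averaged the signal into 38 bins per ORF. What they deposited is therefore a score on a logarithmic scale. The 2 cultures of the methods were not kept apart, so precision is limited by the number of arrays. The genome build, the software version and the base of the logarithm are not given in the sources used here. The methods name the same antibody product for H3K18ac and H3, while the labels name none for H3.

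Of 6685 ORFs, 6 with missing values and 1 (YJR162C) with values above 20 in size were left out. Medians over all bins of the ORFs kept still differed between the samples as deposited, for H3 from 0.11 in sample E to 0.15 in sample A. The 5 samples of an antibody were therefore shifted to the mean of their medians. Exact zeros, 2911 in Gcn5 of sample A (108 in members) and 1325 in H4K16ac of sample E (32 in members), were kept. The outer bins of neighbouring ORFs on their shared side correlated with r = 0.36 across 5874 pairs of ORFs, which are not independent replicates, against 0.05 with the bins turned round. RefSeq assembly R64 gave names, lengths and neighbours for 235 of the 245 members. The planned search for centromere element motifs was not run, since no genome sequence was used here.

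Named genes were, by rule, the first ORFs with the 2 highest and 2 lowest H3 levels on the facing flank, the 2 highest and 2 lowest members of each antibody and region, the 2 unsuffixed members with the largest ORF difference in each direction between samples B and A and between D and C, and the listed genes. Members and lists were chosen with earlier results of these data known. Calculations were made in Python 3.11.15 (numpy 2.4.6, pandas 2.3.3, figures with matplotlib 3.10.9) and checked on simulated data. Alternatives covered the member numbers, the ORFs compared with, the normalization, the bins, mean or median, H3 subtraction and the leaving out of single samples.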

Additional observations from a re-analysis of the deposited data

How the results depend on the processing

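The 12 level differences between members and other ORFs kept their values within the SD over the 16 chromosomes under all 196 alternatives run, the leaving out of each sample included, though 7 of these values had the opposite sign, none of a main difference above 0.00696 in size. Only H3 at the ORF (−0.12, SD 0.09) and in the 3′ IGR (−0.17, SD 0.10) differed by more than that SD. For the rest, even the loss of the difference would have stayed within it, so this check says little about them. The same holds below wherever the SD exceeded the difference. Subtracting H3 was not among the alternatives, and with it the Gcn5 difference was 0.12, 0.12 and 0.15 in the 5′ IGR, at the ORF and in the 3′ IGR, against 0.01, −0.00 and −0.01 without it and SDs of 0.08, 0.06 and 0.07. For the differences between samples (members minus other ORFs), 243 alternatives stayed within that spread and 33 did not. The sign was opposite in 46 of the 276, 21 of them with H3 subtracted, all for main differences of at most 0.0290 in size. With H3 subtracted, Gcn5 gave 0.0798 (B minus A) and 0.0616 (E minus A) in the 5′ IGR, 0.0835, 0.0414, 0.0129 and 0.0487 (B minus A, C minus A, D minus C and E minus A) at the ORF, and 0.0923, 0.0652 and 0.0815 (B, C and E minus A) in the 3′ IGR. H3K18ac gave 0.0641 and 0.0704 (C and E minus A) in the 5′ IGR, 0.0693, 0.0452 and 0.0568 (B, C and E minus A) at the ORF and 0.110, 0.0741 and 0.0951 in the 3′ IGR. H4K16ac gave, in the same order of B, C and E minus A, 0.105, 0.0613 and 0.0687 in the 5′ IGR, 0.0826, 0.0362 and 0.0547 at the ORF, and 0.106, 0.0759 and 0.0730 in the 3′ IGR. This subtraction takes the H3 difference of the members into the other antibodies by its construction. With only numbers 001 to 003 as members, H3 gave −0.149 (B minus A) and −0.123 (C minus A) in the 5′ IGR and −0.131, −0.0939 and −0.0968 (B, C and E minus A) at the ORF, while Gcn5 gave −0.0159 (E minus A) at the ORF and −0.0806 (B minus A) in the 3′ IGR. The cause was not tested.

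On the facing flanks of the first ORFs, 143 alternatives stayed within the spread and 4 did not, and 9 had the opposite sign. Of these 9, 3 came from the 4 bins farthest from the ORF. They included the largest main difference that changed sign, −0.244 for H4K16ac of the facing flank minus the flank facing away in sample C. With H3 subtracted, an alternative chosen after the data were seen, B minus A was 0.980 for Gcn5, 0.982 for H3K18ac and 1.10 for H4K16ac. H3 of the facing flank minus the flank facing away was −0.0871 in sample D over the 4 bins nearest the ORF, against −0.57 over 9 bins, and the cause was not tested. For H3, B minus A was −1.03 with values as deposited and with quantile normalization, and −1.10 with the nearest listed ORF of each arm in place of the first ORFs. The last of these was also chosen after the data were seen. No paired analysis was possible because each antibody and sample has 1 file. The number of probes behind a bin is not known, and a difference of 1 sample has no replicate check.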
